A study of Xenopus laevis with 4 samples.

Results

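The genes described here encode proteins that build ribosomes in the nucleolus. They were chosen by gene symbol from the platform's probe-to-gene table: symbols that begin like those of the Nop, Nol, Rrp, Utp, Rpf and Imp families, of the small nucleolar ribonucleoproteins, of nucleolin and nucleophosmin, of named large subunit factors and of RNA polymerase I, on probe sets assigned to 1 gene with a mean signal of at least 100 over the 4 arrays. The rule found 69 probe sets of 55 genes, and 54 genes passed the signal threshold, out of 5201 single-gene genes that did so on the whole array. Each gene was read by its brightest probe set. The lowest means inside the threshold were those of rrp1b.S (103.8), utp25.L (314.4), utp25.S (319.2), nol10.L (345.2) and utp14a.L (356.2), and the gene outside it was ncln.L (85.8).

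The samples were whole Xenopus laevis embryos at stage 12, in gastrulation, each array holding RNA of embryos that had been injected radially at the 4-cell stage. The xSGK1 group received 2 morpholinos against xSGK1, 40 ng of each, and the control group received 80 ng of a control morpholino. Morpholinos are antisense oligonucleotides that block translation or splicing, and SGK1 is a serine/threonine kinase. There were 2 independent experiments with 1 array per injection, so n = 2 arrays per group, and the number of embryos pooled per array is not given in the sources used here. The study asked which genes SGK1 regulates in the embryo.

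Ribosomes are assembled on a long precursor RNA that RNA polymerase I transcribes in the nucleolus. Box C/D and box H/ACA particles modify that RNA, the small subunit processome folds and cuts its 18S part, and a succession of large subunit factors matures the rest together with the 5S particle. Xenopus eggs carry a large maternal store of ribosomes, and the embryo takes up ribosomal RNA synthesis again around the midblastula transition, before gastrulation.

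The symbols ending in .L and .S mark the homeologous copies of a gene in this allotetraploid frog, whose transcripts can cross-hybridise. The members were 32 .L and 22 .S genes with 48 distinct base names, and 6 base names had both copies measured. All 54 were matched to a RefSeq gene by gene identifier. Of the symbols spelled out in the rule, gar1, nhp2, imp4, wdr12, ebna1bp2, rrs1 and nip7 were not analysed here. The rule reads only the start of a symbol, so it also took 3 genes that have no known part in ribosome assembly: fbln1.L encodes an extracellular matrix fibulin, fblim1.S a filamin-binding LIM protein and ncln.S the membrane protein nicalin.

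Signals below are deposited intensities scaled to a 2% trimmed mean of 500. A log2 change is the xSGK1 minus the control mean of log2(signal + 16), and its standard error (SE) comes from limma with the experiment as a block. A gene is said to have risen or fallen where its limma p, adjusted over all 9251 probe sets fitted, was at most 0.05 in that blocked fit. The limma fit without the block called 0 of the 54 genes and 0 of the 9251 probe sets; its adjusted p was 0.999 or above for every member, and 1 member, rpf2.S, had an unadjusted p under 0.05, against 3.61% of all probe sets. Every call below therefore rests on the blocked fit. With 2 arrays in each group and no pairing, the smallest two-sided p an exact permutation test allows is 0.333. Pairing by experiment, as in the blocked fit, allows fewer arrangements.

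The target transcript sgk1.L measured 3071 and 3300 in xSGK1 arrays and 2321 and 2839 in control arrays (adjusted p = 0.126 with the block), which does not check a block of translation. Mesodermal, neural and endodermal markers were present, with 6 of 6, 4 of 4 and 6 of 7 genes at a mean of at least 100, as were 4 of 5 organizer genes and 8 of 8 epidermal genes, while 0 of 11 markers of differentiated cells not formed at this stage reached it. The summed signal of the 8 epidermal markers was 9507 (experiment 1) and 3575 (experiment 2) with xSGK1 morpholinos, and 15178 and 8431 with the control morpholino, so it was lower with xSGK1 morpholinos and lower in experiment 2; of its genes tfap2a.L went the other way in experiment 1 (1682 against 980.0). The endodermal sum, 6341 and 5128 with xSGK1 morpholinos against 8882 and 7845, was also lower in both experiments, as were the mesodermal (6827 and 6051 against 7045 and 7766) and organizer sums (947.0 and 568.7 against 988.9 and 1149). Single genes of these sums went the other way. The mesodermal eomes.L was higher with xSGK1 morpholinos in both experiments (1673 and 2785 against 1292 and 2118). In experiment 1 tbxt.S (3314 against 2752), gata4.L (542.0 against 383.5), gata4.S, gata6.S, otx2.L and nog.L were higher too. The neural sum was split, at 4763 and 2970 against 4161 and 4407. The 3' to 5' signal ratio of beta-actin was 3.38 and 2.06 in the xSGK1 arrays and 3.11 and 2.24 in the control arrays, and that of Gapd was 17.7 and 15.6 in the xSGK1 arrays and 16.6 and 16.4 in the control arrays. The part of tissue makeup and of RNA quality in the results below was not tested. In whole embryos, fewer cells of a type and less RNA per cell cannot be told apart.

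As a group, the ribosome assembly genes leaned towards lower signals with xSGK1 morpholinos, by small amounts, and few of them passed the test. With the experiment as a block 3 of 54 fell (5.56%), namely rpf2.S, nop16.S and dkc1.L, and 0 rose. Over all probe sets 3.91% were called lower and 4.09% higher (3.69% and 3.86% of the 5201 genes), so the share of members called lower is near the background. The median log2 change of the members was -0.15, against 0.04 over all probe sets, and it was -0.18 in experiment 1 and -0.09 in experiment 2. With 1 array left out and no block the median was -0.352 without xSGK1 array 1, 0.0948 without xSGK1 array 2, 0.000461 without control array 1 and -0.343 without control array 2. Such a fit unbalances the experiments, so the difference between them enters these values (median of the members -0.32, experiment 2 minus experiment 1). Signals were lower with xSGK1 morpholinos in both experiments for 30 of 54 members (55.6%), against 31.9% of all probe sets, and higher in both for 9 (16.7%), against 40.8%. The other 15 members moved in opposite directions. Both xSGK1 arrays lay below both control arrays for 14 members (25.9%, against 13.8% of all probe sets) and above both for 4 (7.41%, against 16.3%). Without the 3 genes matched by letters alone the median was -0.15 over 51 genes. Across the 54 genes, which are not independent, the log2 ratios of the 2 experiments had a Pearson correlation of 0.671.

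**Figure D1:**
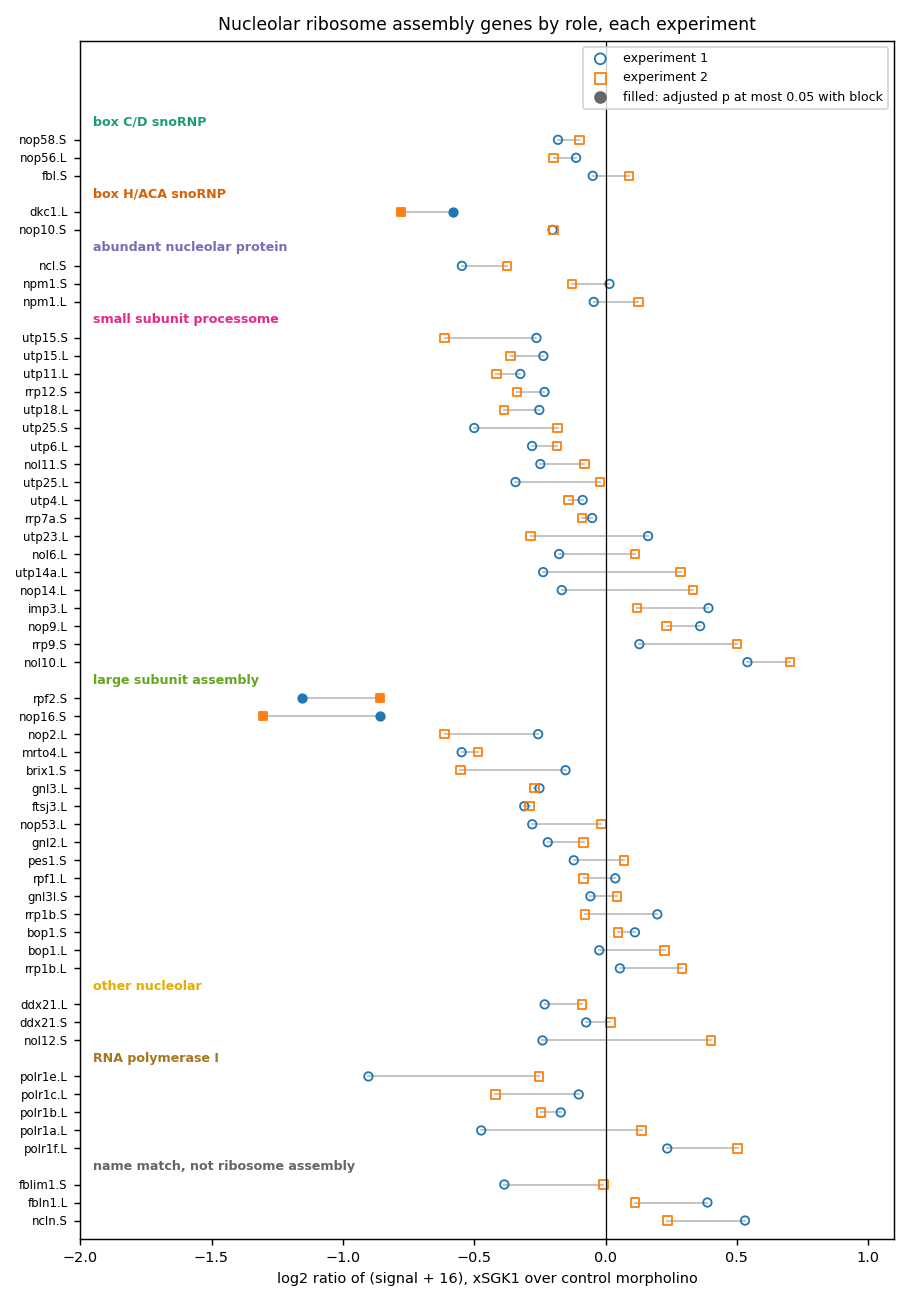
Log2 ratio of (signal + 16), xSGK1 over control morpholino, on the horizontal axis for each of the 54 genes, ordered by role; circles are experiment 1, squares experiment 2, and filled symbols mark an adjusted p of at most 0.05 with the experiment as a block. The 3 filled genes, dkc1.L, rpf2.S and nop16.S, lie well to the left in both experiments, polr1e.L does so in experiment 1, most other members are near 0, and 30 genes have both symbols left of 0.

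Large subunit assembly factors held the largest changes. Among 16 such genes 2 fell, 9 were lower in both experiments, 2 were higher in both and 5 were split. Of all probe sets 3.91% were called lower, 31.9% were lower in both experiments and 40.8% were higher in both. The median log2 change of the 16 genes was -0.15. The gene rpf2.S encodes a factor that in yeast brings the 5S particle to the large subunit precursor together with Rrs1. Its signal was 973.1 and 1097 in the xSGK1 arrays, experiment 1 given first, and 2189 and 2005 in the control arrays. The xSGK1 arrays stood at 0.444 and 0.547 of their controls, the groups did not overlap, and the experiments differed little (0.02 on the log2 scale, experiment 2 minus experiment 1). The log2 change was -1.01 ± 0.14 SE (adjusted p = 0.0241).

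The gene nop16.S, which encodes a nucleolar protein of early large subunit precursors, measured 1874 and 758.8 in xSGK1 arrays and 3410 and 1897 in control arrays. The groups stayed apart by a narrow margin, because nop16.S had its lower signals in experiment 2 under both injections, with a difference of -1.06 on the log2 scale. Its log2 change was -1.08 ± 0.15 SE (adjusted p = 0.0241). With 1 array left out and no block, the change of nop16.S was -0.438 without xSGK1 array 2, -0.661 without control array 1, -1.50 without control array 2 and -1.72 without xSGK1 array 1, while that of rpf2.S ran from -1.09 to -0.923. The difference between the experiments enters these values.

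The RNA methyltransferase gene nop2.L measured 2724 and 2198 in xSGK1 arrays and 3257 and 3369 in control arrays. The groups were apart, but the log2 change of -0.43 ± 0.13 SE did not pass (adjusted p = 0.0851). The gene mrto4.L, whose product resembles a stalk protein of the large subunit and holds its place during assembly, measured 356.8 and 312.0 in xSGK1 arrays and 528.9 and 443.5 in control arrays. Its ratios were close in the 2 experiments, 0.674 and 0.704, yet the log2 change of -0.52 ± 0.16 SE did not pass either (adjusted p = 0.0932). The assembly factor gene brix1.S had log2 ratios of -0.15 and -0.55. The nucleolar GTPase gene gnl3.L, which encodes nucleostemin, had -0.25 and -0.27, and ftsj3.L, for another RNA methyltransferase, -0.31 and -0.29. None of these 3 passed (adjusted p = 0.171, 0.175 and 0.208). Lower by less in both experiments were nop53.L and gnl2.L, with log2 changes of -0.15 each.

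Other large subunit genes lay near no change. Pes1 and Bop1 form, with Wdr12, a complex needed to process the large subunit precursor. The signal of pes1.S was 2165 and 1804 in xSGK1 arrays, against 2356 and 1717 in control arrays. That of bop1.S was 1861 and 1850 in xSGK1 arrays, against 1721 and 1789 in control arrays. The log2 changes were -0.03 ± 0.12 SE for pes1.S, 0.08 ± 0.12 SE for bop1.S and 0.10 ± 0.13 SE for its homeolog bop1.L, so the Bop1 genes lay on the side opposite to rpf2.S and nop16.S without passing the test. The remaining values were -0.02 for rpf1.L, -0.01 for gnl3l.S, 0.06 for rrp1b.S and 0.17 for rrp1b.L.

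**Figure D2:**
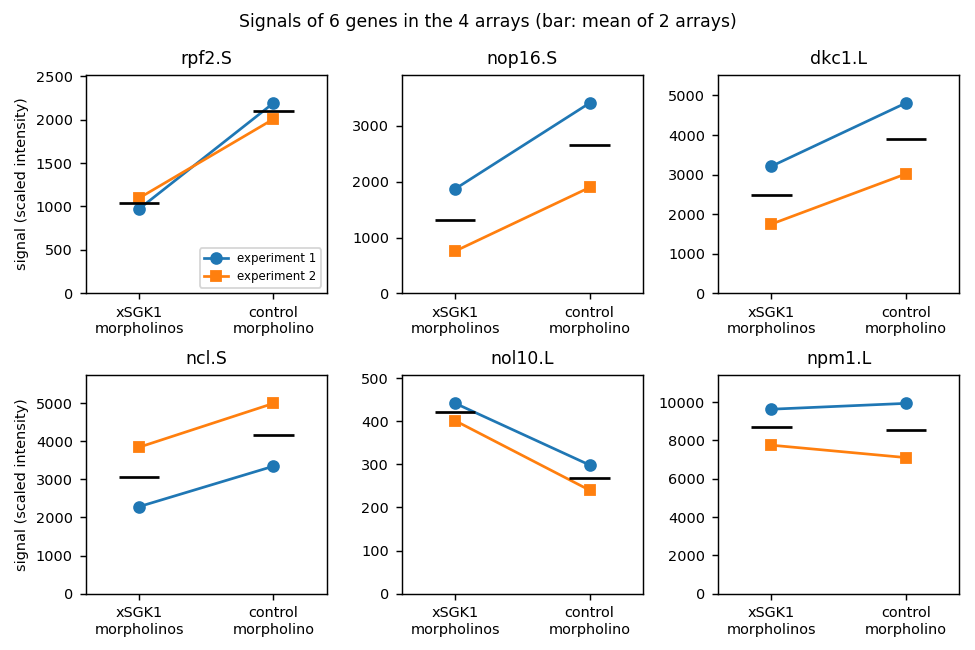
Scaled signal on the vertical axis, from 0, of 6 genes in xSGK1 (left) and control (right) arrays; lines join the arrays of an experiment and black bars are means of 2 arrays. In rpf2.S both experiments nearly coincide, nop16.S and dkc1.L are lower with xSGK1 morpholinos in both experiments from different levels, ncl.S is higher in experiment 2, nol10.L is higher in xSGK1 arrays, and npm1.L goes opposite ways.

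Both measured box H/ACA genes were lower in both experiments, as were 31.9% of all probe sets. The gene dkc1.L encodes dyskerin, the pseudouridine synthase of these particles. It measured 3212 and 1751 in xSGK1 arrays and 4807 and 3016 in control arrays. Each xSGK1 array was below the control of its own experiment, at 0.668 and 0.581 of it, but the groups overlapped, because the signal of dkc1.L was lower in experiment 2 by -0.77 on the log2 scale. The log2 change was -0.68 ± 0.11 SE (adjusted p = 0.0279). That call did not hold with the mean over the gene's probe sets in place of the brightest (-0.44, adjusted p = 0.101) or with no intensity trend in the variance model (adjusted p = 0.0651). Leaving out 1 array without a block, which lets the difference between the experiments in, gave -1.11 without xSGK1 array 1, -0.244 without xSGK1 array 2, -0.344 without control array 1 and -1.01 without control array 2. A second dkc1.L probe set with a mean of 187.0 changed by -0.20 (adjusted p = 0.535) and was split, with log2 ratios of 0.03 and -0.43. A further dkc1.L probe set, with a mean of 47.1, lay under the signal threshold and was not fitted. It was higher with xSGK1 morpholinos in both experiments, at 58.5 and 43.9 against 45.8 and 40.4. The gene nop10.S, for a small core protein of the same particles, measured 2982 and 2543 in xSGK1 arrays and 3432 and 2921 in control arrays. Its step was about equal in both experiments (-0.20 ± 0.10 SE) and did not pass (adjusted p = 0.242). A second nop10.S probe set gave -0.28 (adjusted p = 0.164).

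Of the 3 box C/D genes 0 passed the test. The core protein gene nop58.S measured 6696 and 4511 in xSGK1 arrays and 7593 and 4836 in control arrays (log2 change -0.14 ± 0.08 SE, adjusted p = 0.311). The related nop56.L measured 5172 and 2472 in xSGK1 arrays and 5591 and 2836 in control arrays (-0.15 ± 0.10 SE, adjusted p = 0.325). For both genes the experiments differed far more than the injections did, by -0.61 for nop58.S and -1.02 for nop56.L. The gene fbl.S encodes fibrillarin, the methyltransferase of these particles. Its signal of 2964 and 2142 in xSGK1 arrays, against 3066 and 2014 in control arrays, gave a log2 change of 0.02 ± 0.11 SE.

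The abundant nucleolar proteins nucleolin and nucleophosmin did not share a pattern. Nucleolin, an RNA-binding protein of the dense nucleolar regions, is encoded by ncl.S. Its signal was 2285 and 3844 in xSGK1 arrays and 3344 and 4993 in control arrays, so each xSGK1 array was below its own control while the groups overlapped. The log2 change of -0.46 ± 0.10 SE just missed the threshold (adjusted p = 0.0512), and it passed in 4 of the 10 blocked settings tried. With 1 array left out and no block, which lets the difference between the experiments in, it was -0.0881 without xSGK1 array 1, -0.835 without xSGK1 array 2, -0.749 without control array 1 and -0.173 without control array 2. Between experiments ncl.S was higher in experiment 2, by 0.66, unlike most members. A second ncl.S probe set with a mean of 1535 disagreed on that point. It measured 1623 and 779.8 in xSGK1 arrays and 2964 and 771.8 in control arrays, a difference between experiments of -1.48, with an injection change of -0.42 (adjusted p = 0.246). The nucleophosmin genes npm1.L and npm1.S, for a chaperone of the granular nucleolar region, had log2 changes of 0.04 ± 0.08 SE and -0.06 ± 0.10 SE. The signals of npm1.L were 9625 and 7747 in xSGK1 arrays and 9929 and 7102 in control arrays, and the 2 experiments gave opposite signs for both copies.

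The small subunit processome, the particle of the U3 small nucleolar RNA and many proteins that forms on the nascent precursor, was represented by 19 genes. Of these 0 were called in either direction. In both experiments 11 were lower (57.9%, against 31.9% of all probe sets) and 4 were higher (21.1%, against 40.8%), and 4 were split. The median log2 change was -0.11, with -0.23 in experiment 1 and -0.09 in experiment 2. Utp15 belongs to the subcomplex that binds first and that is also linked to RNA polymerase I transcription. The signal of utp15.S was 1789 and 1169 in xSGK1 arrays and 2150 and 1795 in control arrays, and that of utp15.L was 2318 and 2016 in xSGK1 arrays and 2734 and 2594 in control arrays. The groups were apart for both copies. Their log2 changes of -0.44 ± 0.14 SE and -0.30 ± 0.11 SE did not pass (adjusted p = 0.101 and 0.138). Other proteins of that subcomplex are encoded by utp4.L (-0.11 ± 0.12 SE) and nol11.S (-0.16 ± 0.13 SE).

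Other processome proteins gave a wider spread. Lower in both experiments were utp11.L (log2 change -0.37), utp25.S (-0.34), utp18.L (-0.32), rrp12.S (-0.28), utp6.L (-0.23), utp25.L (-0.18) and rrp7a.S (-0.07), with adjusted p from 0.162 for utp11.L to 0.73 for rrp7a.S. Split between the experiments were utp23.L, nol6.L, utp14a.L and nop14.L, with mean changes between -0.06 and 0.08. Of these 4, utp14a.L had the largest difference between experiments of all members. It measured 480.6 and 207.5 in xSGK1 arrays and 569.5 and 167.3 in control arrays, a log2 difference of -1.41 between experiments.

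Higher in both experiments were nol10.L, rrp9.S, nop9.L and imp3.L. The gene nol10.L, whose yeast counterpart is the processome protein Enp2, measured 441.4 and 401.0 in xSGK1 arrays and 298.5 and 240.1 in control arrays. The groups were apart, at 1.48 and 1.67 of control. This was the largest upward change among the members, 0.62 ± 0.16 SE, and it did not pass (adjusted p = 0.0699). The gene rrp9.S, for a protein specific to the U3 particle, measured 1505 and 1725 in xSGK1 arrays and 1375 and 1214 in control arrays (0.31 ± 0.14 SE, adjusted p = 0.205). The RNA-binding protein gene nop9.L (0.30) and imp3.L (0.26), whose product helps the U3 RNA pair with the precursor in yeast, did not pass and were also higher in experiment 2, by 0.63 and 0.43.

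RNA polymerase I subunits with polr1 symbols were lower in both experiments for 3 of 5 genes (60.0%, against 31.9% of all probe sets). They were higher in both for 1 (20.0%, against 40.8%), and 0 were called. The gene polr1e.L measured 531.4 and 588.2 in xSGK1 arrays and 1008 and 703.8 in control arrays. The groups were apart, but the step was much larger in experiment 1 (0.527 of control) than in experiment 2 (0.836), and the log2 change of -0.58 ± 0.19 SE did not pass (adjusted p = 0.114). The genes polr1c.L, for a subunit shared with RNA polymerase III, and polr1b.L, for the second-largest subunit, had changes of -0.26 and -0.21. The signal of polr1c.L was 1118 and 661.3 in xSGK1 arrays and 1201 and 889.8 in control arrays, and these overlapped. The largest subunit, polr1a.L, was split, with log2 ratios of -0.47 and 0.14. The gene polr1f.L measured 1089 and 1106 in xSGK1 arrays and 922.8 and 775.8 in control arrays, higher in both experiments without passing (0.37 ± 0.15 SE, adjusted p = 0.155).

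Of the remaining nucleolar genes, the RNA helicase gene ddx21.L measured 3413 and 3526 in xSGK1 arrays and 4010 and 3752 in control arrays, apart but by a small step (-0.16 ± 0.10 SE, adjusted p = 0.324). Its homeolog ddx21.S had a log2 change of -0.03 ± 0.11 SE. The gene nol12.S, for a protein of precursor processing, measured 654.8 and 630.8 in xSGK1 arrays and 776.2 and 473.8 in control arrays, and so was split, with log2 ratios of -0.24 and 0.40. The 3 genes matched by letters alone had changes of -0.20 for fblim1.S, 0.25 for fbln1.L and 0.38 for ncln.S, and 0 of them were called.

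The copies lay on the same side of 0 in 5 of 6 homeolog pairs. The .L and .S changes were -0.30 and -0.44 for utp15, -0.18 and -0.34 for utp25, -0.16 and -0.03 for ddx21, 0.10 and 0.08 for bop1, 0.17 and 0.06 for rrp1b, and 0.04 and -0.06 for npm1. The exception was the npm1 pair, whose changes were smaller than their standard errors. The changes of bop1.L, bop1.S, ddx21.S and rrp1b.S, in pairs on the same side, were also smaller than theirs. The gene rrp1b.S lay at the signal filter, with means of 108 with xSGK1 morpholinos and 99.8 with the control morpholino. Only its experiment 1 arrays were above 100 (145.1 with xSGK1 morpholinos and 124.5 with the control morpholino). Those of experiment 2 measured 70.4 and 75.2. The side on which it lay is therefore not read as support. The probe sets of npm1.L and of rrp7a.S, which is in none of these pairs, carry a suffix that marks possible cross-hybridisation. These differences between copies were not tested. Among other probe sets of the same genes, 10 had a mean of at least 100, and 0 of these were called with the block.

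The experiments also differed in these genes. With both injections the signal was lower in experiment 2 than in experiment 1 for 35 of 54 members (64.8%), against 39.9% of all probe sets and 39.4% of the 5201 genes, and higher for 8 (14.8%, against 41.5% and 41.8%). The median difference was -0.32 on the log2 scale, and 0.01 over all probe sets. By role the medians were -0.61 for the box C/D genes, -0.50 for the box H/ACA genes, -0.31 for large subunit genes, -0.30 for the processome and -0.16 for RNA polymerase I. Of the 30 members lower with xSGK1 morpholinos in both experiments, 20 were also lower in experiment 2 with both injections. The called genes nop16.S and dkc1.L were among these and rpf2.S was not. The part of the state that distinguishes the experiments in the injection result was not tested.

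**Figure D3:**
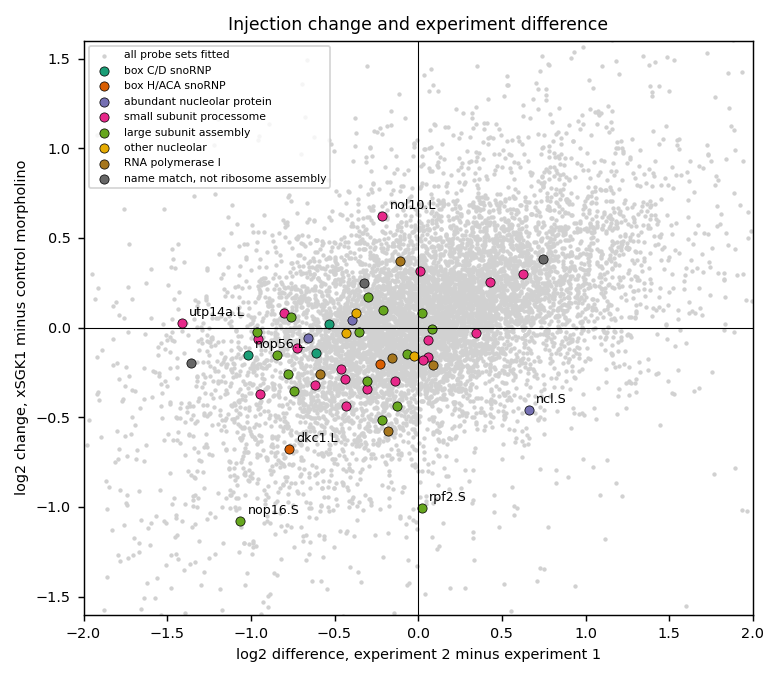
Log2 difference between experiments (experiment 2 minus 1, horizontal) against log2 change with injection (xSGK1 minus control, vertical) for all 9251 probe sets fitted in grey, clipped at the axes, and the 54 members coloured by role. Most members lie left of 0 and somewhat below it; rpf2.S lies near 0 on the horizontal axis at -1.01, ncl.S to the right, and nol10.L highest at 0.62.

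Genes that work beside these members were read from lists of other ribosome assembly factors, the RNA exosome, RNase P and MRP, RNA polymerase I initiation with the Myc family, RNA polymerases II and III, and p53 with ribosome stress. Of 72 other assembly factors 3 fell and 0 rose (4.17% lower, against 3.91% of all probe sets), with a median of -0.14. Of the same 72 genes 36 were lower in both experiments, against 31.9% of all probe sets. Another 16 were higher in both, against 40.8%. The gene sbds.S encodes a factor that, with a GTPase, releases eIF6 from new large subunits. It measured 461.3 and 480.1 in xSGK1 arrays and 878.9 and 854.9 in control arrays (log2 change -0.86 ± 0.15 SE, adjusted p = 0.0300). Like rpf2.S it was nearly level between the experiments, with a difference of 0.01. The nucleolar protein gene surf6.L measured 677.8 and 469.5 in xSGK1 arrays and 1192 and 901.2 in control arrays (-0.86 ± 0.14 SE, adjusted p = 0.0286). The helicase gene ddx49.S measured 729.3 and 427.0 in xSGK1 arrays and 1168 and 843.6 in control arrays (-0.81 ± 0.15 SE, adjusted p = 0.0339). The large subunit factor genes gtpbp4.L (-0.53, adjusted p = 0.0514), mak16.L (-0.57, 0.0581) and eif6.S (-0.48, 0.0607) did not pass. Nor did ddx31.L, which had the largest upward change of the list (0.61, adjusted p = 0.0766). Its probe set has a suffix that marks possible cross-hybridisation.

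On the transcription side, rrn3.L encodes the protein that recruits RNA polymerase I to the ribosomal RNA promoter. Its signal was 103.7 and 41.7 in xSGK1 arrays and 300.6 and 173.6 in control arrays, with no overlap (log2 change -1.56 ± 0.20 SE, adjusted p = 0.0232). It passed the signal filter only through the control arrays (means of 72.7 with xSGK1 morpholinos and 237 with the control morpholino), so its call is not read as support; in the blocked fit with no filter its adjusted p was 0.0226. It was also lower in experiment 2, with a difference of -0.90. This was the call among 12 genes of its list (8.33%, against 3.91% of all probe sets), of which 7 were lower in both experiments (58.3%, against 31.9%) and 3 higher (25.0%, against 40.8%). The Myc gene myc.L, for a transcription factor that drives ribosome assembly genes in many cells, measured 1445 and 574.4 in xSGK1 arrays and 1860 and 920.6 in control arrays (-0.51 ± 0.15 SE, adjusted p = 0.0808). Its homeolog myc.S was split, with log2 ratios of -0.54 and 0.30. The promoter-binding factor genes ubtf.L and ubtf.S, with changes of -0.43 and -0.32, did not pass (adjusted p = 0.158 and 0.242). Also lower in both experiments without passing were mxi1.L (-0.45, adjusted p = 0.134) and mycl.S (-0.34, 0.146). Higher in both without passing were mycl.L (0.44, adjusted p = 0.233) and taf1b.L (0.35, 0.253). The largest upward change of the list, 0.55 for max.S, did not pass either (adjusted p = 0.128). Its homeolog max.L was at -0.11. The probe sets of max.S, myc.L, myc.S and ubtf.S all have suffixes that mark possible cross-hybridisation.

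A polr2 symbol does not exclude a subunit that RNA polymerase I shares. Of 9 genes with such symbols, polr2h.L fell (11.1%, against 3.91% of all probe sets), on a probe set whose suffix marks possible cross-hybridisation. It measured 1131 and 550.1 in xSGK1 arrays and 2205 and 1305 in control arrays (-1.09 ± 0.14 SE, adjusted p = 0.0232). The other 8 lay between -0.24 and 0.48 without a call. Of 5 RNA polymerase III genes, 12 exosome genes and 5 RNase P and MRP genes 0 were called, and the medians were -0.17, 0.04 and 0.17. In the list of 8 p53 and ribosome stress genes the p53 target genes sesn1.L and ppm1d.L were called higher, with changes of 1.86 and 0.86 and adjusted p of 0.0232 and 0.0287. Over all probe sets 4.09% were called higher. In the same list ccng1.L (0.52, adjusted p = 0.166) and mdm4.S (0.55, adjusted p = 0.0884) did not pass. The signal of sesn1.L was 221.7 and 522.4 in xSGK1 arrays, against 70.7 and 95.9 in control arrays, and that of ppm1d.L was 1653 and 1674 in xSGK1 arrays, against 1013 and 814.4 in control arrays. The gene sesn1.L passed the signal filter only through the xSGK1 arrays (means of 372 with xSGK1 morpholinos and 83.3 with the control morpholino), so its call is not read as support; with no filter its adjusted p was 0.0223. The probe sets of ppm1d.L and ppm1d.S carry suffixes that mark possible cross-hybridisation. Another probe set of ppm1d.L, at 0.48, was not called (adjusted p = 0.153), nor was its homeolog ppm1d.S, at -0.09. The results of sesn1.L and ppm1d.L had been known from earlier work on these data when that list was written, so their count is not read as support. The same list holds the ribosomal proteins that travel with the 5S particle handled by Rpf2. Their genes rpl5.L, rpl5.S and rpl11.S had changes of -0.27 ± 0.10 SE, -0.24 ± 0.10 SE and -0.33 ± 0.12 SE and did not pass (adjusted p = 0.146, 0.186 and 0.130).

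Cytoplasmic ribosomal protein genes, the structural counterparts of the assembly factors, moved more uniformly. In both experiments 68 of 71 were lower (95.8%, against 31.9% of all probe sets) and 0 higher (against 40.8%). Their median was -0.29, with a range from -0.71 to 0.04, and 6 were called lower (8.45%, against 3.91% of all probe sets). The assembly genes ranged from -1.08 to 0.62. The difference between the 2 sets was not tested.

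**Figure D4:**
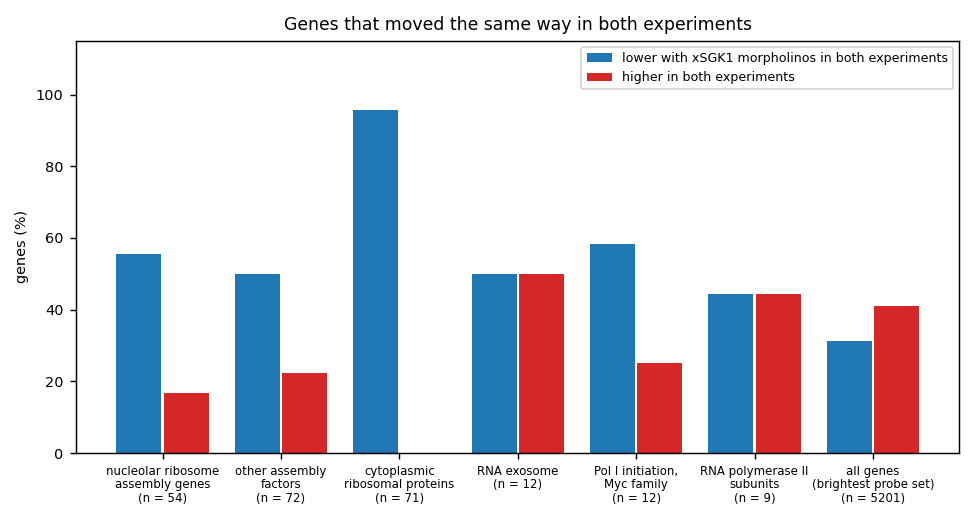
Share of genes, in percent from 0, that were lower (blue) or higher (red) with xSGK1 morpholinos in both experiments, for the nucleolar ribosome assembly genes, 5 comparison lists and all single-gene genes by brightest probe set. The shares are 55.6% and 16.7% for the 54 assembly genes, 95.8% and 0% for 71 ribosomal protein genes and 31.2% and 41.0% for all 5201 genes.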

How the data were processed

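Affymetrix Xenopus laevis arrays were hybridised with RNA from 100 ng of total RNA, amplified in 2 cycles (per the labels' protocols). For 15611 probe sets the authors deposited signal intensities on a linear scale, made with MAS5 in GCOS 1.4 according to the submitters' processing notes. Medians were 167 and 174 in the xSGK1 arrays and 164 and 161 in the control arrays; 9020 to 9183 probe sets per array reached 100. Their number limits the precision.

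Each array's 2% trimmed mean, deposited at 500.05 to 500.06, was set to 500, and log2(signal + 16) was used. Control probe sets (120) and means under 100 were left out, which kept 9251. The test was limma's (version 3.58.1, R 4.3.3; lmFit, eBayes with an intensity trend, two-sided, Benjamini-Hochberg over 9251). The model was fitted without a block as the primary design and with the replicate number as a block. The numbers pair the arrays: the series text describes independent experiments that held both injections, and experiment differences correlated between injections (Pearson 0.838). In the blocked fit, a probe set's own variance comes from how far the injection change differed between the 2 experiments. That leaves 1 residual degree of freedom per probe set, and eBayes moderates the variance with information from all 9251 probe sets. SE and p-values rest on the moderated variance, so they do not measure a gene's own disagreement between experiments alone. With log2 ratios of -0.20 and -0.20, nop10.S had an SE of 0.10. With 0.05 and 0.99, ccng1.L had an SE of 0.21. Without the block, SE and p-values also take in the spread between the experiments. The script was tested on simulated data. Of all probe sets 9304 had 1 gene symbol, 195 several and 6112 none, and 9227 matched RefSeq (Xenopus_laevis_v10.1) by gene ID. No build is named, so no coordinates are given, and no sequences are shown.

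The members and lists were chosen with earlier results of these data known. Named with values were called members, the 3 per role with the largest moderated statistic in the blocked fit, homeologs, other probe sets, genes at the signal threshold, and the leading genes of each list; other members named in counts were chosen after their values were seen. The offset, the filter, the normalization, the variance model and the choice of probe set were each varied, with and without the block, and each array was left out in turn. Figures were drawn with matplotlib 3.10.9.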

Additional observations from a re-analysis of the deposited data

Results flagged for a closer look

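For fibrillarin, 2 further probe sets of fbl.S that the comparison did not use had both xSGK1 arrays above both control arrays, while the brightest one did not. The first measured 1002 and 873.1 in xSGK1 arrays and 824.7 and 742.1 in control arrays, a mean 1.2 times as high. The second measured 173.4 and 152.2 in xSGK1 arrays and 83.7 and 130.2 in control arrays, a mean 1.52 times as high. Neither passed with the block (log2 changes 0.25 and 0.56, limma adjusted p = 0.268 and 0.175), and 16.3% of all probe sets have both xSGK1 arrays above both controls.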

How the results depend on the processing

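With the experiment as a replicate block 3 members were called lower, against 0 without it, and the blocked count was 3 with no signal filter, with a filter of 300 and with quantile normalization, 4 with an offset of 1, an offset of 64 or probe sets with the suffixes s, x and a left out, 5 with cyclic loess, 2 without the intensity trend and 2 with the mean over a gene's probe sets, the last added after seeing the data. In these 10 blocked settings rpf2.S and nop16.S were called in all and dkc1.L in 8; 0 members were called higher in any setting. Over all probe sets the blocked fit called 740 in either direction, against 0 without the block and 1392 with cyclic loess. Called lower in the blocked fit were 362 of 9251 probe sets, 405 with an offset of 1 and 563 with an offset of 64. The number was 292 with quantile normalization, 779 with cyclic loess and 258 without the intensity trend. With no filter 335 of 15491 were called lower, and with a filter of 300, 255 of 6266. Without the suffixed probe sets it was 378 of 8280, and with the mean over a gene's probe sets 544 of 8272. The member counts are to be read beside these. With cyclic loess 27 members were lower in both experiments, against 30 in the primary fit. Both xSGK1 arrays lay below both controls for 11 members with cyclic loess and 12 with quantile normalization, against 14. Of all probe sets 15.1%, 14.7% and 13.8% did so in these 3 settings. Over all probe sets the median change was 0.0394 in the primary fit, 0.0174 with quantile normalization and 0.0101 with cyclic loess. That of the members was -0.15, -0.109 and -0.109, so the medians lay closer together with these normalizations. The median change of the members ran from -0.152 to -0.109 in the settings that kept all arrays. With 1 array left out and no block, which unbalances the experiments, it ran from -0.352 to 0.0948, members with all xSGK1 arrays below all controls numbered 15 to 38 (33 without xSGK1 array 1, 18 without xSGK1 array 2, 15 without control array 1 and 38 without control array 2, where 34.9%, 24.9%, 24.8% and 34.2% of all probe sets did so), and 0 to 1 were called lower, nop16.S without xSGK1 array 1. Among uncalled genes utp15.S ran from -0.742 without xSGK1 array 1 to -0.134 without xSGK1 array 2, and polr1e.L from -0.832 without control array 2 to -0.324 without control array 1. The lowest and highest changes with 1 array left out changed sign for fbl.S (-0.281 to 0.321), npm1.L (-0.201 to 0.281), npm1.S (-0.42 to 0.308), nop56.L (-0.685 to 0.376), nop58.S (-0.465 to 0.184), ddx21.S (-0.268 to 0.213), nol12.S (-0.266 to 0.427), polr1c.L (-0.633 to 0.111), fblim1.S (-0.971 to 0.578) and ncln.S (-0.0646 to 0.831). With cyclic loess ddx21.S was at 0.00205 with and without the block. The cause was not tested. Counts over both experiments cannot be had with an array left out, nor a blocked test, which would have no residual degrees of freedom.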
